A study of Homo sapiens with 18 samples.

Results

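The longest protein-coding genes of the human genome were followed in HAP1 cells that lacked the cohesin release factor WAPL, the cohesin loader subunit SCC4, or both. A gene was taken as a long gene if it was autosomal and protein-coding, spanned at least 500 kb in the GENCODE annotation of GRCh37, and had a mean of at least 0.5 CPM (counts scaled to a fixed library total) over all 18 samples. Genes of several families that had been set apart by name (among them the NCAM, CDH, TENM, NRXN, PCDH, GABR, COL and KIF symbols) were left out. This gave 174 long genes among the 20329 genes with a row in the count files. Of the 302 autosomal protein-coding genes with that span, 28 were left out by name and 100 had a mean below 0.5 CPM, 13 of which had no count in any sample. The rule used gene length, mean level and the names left out.

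HAP1 is an adherent, near-haploid human cell line derived from a chronic myeloid leukaemia line. Poly(A) RNA was sequenced from 6 groups of 3 samples. Only the controls are labelled as set A or B, and the knockout samples were placed in a set by the sequencing run number that their data carry. Set A held unedited control cells (control A), ΔWAPL clone 3.3, ΔSCC4 cells, and ΔWAPL/ΔSCC4 double knockout cells that had been made by disrupting SCC4 in ΔWAPL cells, labelled 3.3. Set B held a second set of unedited control cells (control B) and ΔWAPL clone 1.14. The knockouts were made with CRISPR guides and insertion of a Blasticidin cassette in WAPL or a Puromycin cassette in SCC4, and no label gave more than 1 clone for any knockout line, so a change in a line and the history of that clone cannot be told apart. The 2 sets carried different sequencing run numbers, so clone 1.14 and set B cannot be told apart either. No label says whether the 3 samples of a group came from separate cultures, and p-values therefore measure only the spread between these samples. In bulk samples fewer cells that express a gene and less RNA per cell cannot be told apart.

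Cohesin is a ring-shaped complex that embraces DNA and extrudes chromatin loops, often until it meets CTCF bound at a loop anchor. SCC4 (gene symbol MAU2) works with NIPBL to load cohesin, and WAPL opens the ring and lets it come off the DNA. A long gene can itself hold loop anchors and whole loops, takes many hours to transcribe, and in its mature messenger RNA keeps only a small share of the span, the rest being intron. Very long genes are best known from neurons, where many of them code for adhesion molecules, channels and synaptic scaffolds, and several coincide with common fragile sites, regions that break when replication is slowed.

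The targeted genes matched the labels. MAU2 stood between 52.0 and 72.7 CPM in the 12 samples with intact SCC4 and between 0.505 and 1.05 CPM in the 6 samples without it. WAPL RNA stood between 38.1 and 50.3 CPM in the 9 samples with a WAPL cassette and between 67.8 and 131 CPM in the other 9, so that transcripts of the disrupted gene were still counted. The blood lineage markers PTPRC and CD34 were at or near 0 in all groups (group means of at most 0.0826 CPM) and HBG1 had no count, whereas VIM had group means of 255 to 587 CPM, CDH2 52.9 to 109 CPM and KRT18 42.6 to 73.7 CPM. Both partners of the fusion carried by the parental leukaemia line, BCR and ABL1, were expressed. Between 10007646 and 20711127 reads were assigned to genes in each library. In the level of the long genes the control A samples were spread out, with no single sample apart from the others, as described below.

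The sequences just upstream of the annotated start are shown for 5 long genes that stand for the patterns described below. DPYD rose most in both ΔWAPL clones, MTUS2 and NAV2 rose in every knockout line, and LUZP2 and PPP2R2B fell in every knockout line. They were chosen after their values were seen. Each line gives the 250 bases before the RefSeq start that lies farthest upstream, 5′ to 3′ in the direction of transcription, with every CG dinucleotide in capitals.
DPYD: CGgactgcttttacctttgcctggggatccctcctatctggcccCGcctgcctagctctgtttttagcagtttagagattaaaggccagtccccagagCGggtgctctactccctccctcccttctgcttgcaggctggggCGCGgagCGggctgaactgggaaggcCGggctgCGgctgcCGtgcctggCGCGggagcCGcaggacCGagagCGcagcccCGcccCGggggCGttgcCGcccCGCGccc
MTUS2: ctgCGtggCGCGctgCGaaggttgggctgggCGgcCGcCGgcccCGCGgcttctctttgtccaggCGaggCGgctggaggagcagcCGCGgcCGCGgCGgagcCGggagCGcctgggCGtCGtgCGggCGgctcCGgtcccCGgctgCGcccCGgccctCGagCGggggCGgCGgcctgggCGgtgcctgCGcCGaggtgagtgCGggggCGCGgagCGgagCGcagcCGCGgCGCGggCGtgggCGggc
NAV2: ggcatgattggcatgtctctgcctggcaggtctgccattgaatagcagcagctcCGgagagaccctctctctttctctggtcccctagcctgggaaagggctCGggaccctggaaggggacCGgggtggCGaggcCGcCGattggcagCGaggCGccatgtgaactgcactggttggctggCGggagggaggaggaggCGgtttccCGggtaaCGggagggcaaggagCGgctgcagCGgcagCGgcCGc
LUZP2: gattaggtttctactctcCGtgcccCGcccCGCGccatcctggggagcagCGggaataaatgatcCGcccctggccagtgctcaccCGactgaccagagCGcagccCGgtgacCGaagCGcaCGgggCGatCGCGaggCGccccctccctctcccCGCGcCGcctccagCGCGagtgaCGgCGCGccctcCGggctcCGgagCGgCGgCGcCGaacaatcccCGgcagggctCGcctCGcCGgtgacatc
PPP2R2B: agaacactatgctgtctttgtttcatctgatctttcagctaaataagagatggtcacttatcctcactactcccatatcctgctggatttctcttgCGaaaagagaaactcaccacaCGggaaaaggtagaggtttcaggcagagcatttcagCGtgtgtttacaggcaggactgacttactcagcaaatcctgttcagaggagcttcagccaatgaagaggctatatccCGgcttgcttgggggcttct

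These windows were taken from RefSeq (GRCh38.p14) and each matched the GRCh37 genome exactly once, at chr1:98386616-98386865 on the minus strand for DPYD, chr13:29394226-29394475 on the plus strand for MTUS2, chr11:19366533-19366782 on the plus strand for NAV2, chr11:24518349-24518598 on the plus strand for LUZP2 and chr5:146435525-146435774 on the minus strand for PPP2R2B. The MTUS2 window ended where the GENCODE gene starts, the LUZP2 start lay 83 bases inside it and the NAV2 start outside it, and the DPYD and PPP2R2B starts lay 73941 and 28823 bases inside. The windows held 20 CG pairs in DPYD, 44 in MTUS2, 16 in NAV2, 34 in LUZP2 and 4 in PPP2R2B. By symbol, a window was found for 144 of the 174 long genes. Their median number of CG pairs was 20 and their median GC content 65.6%, beside 10 CG pairs and 57.6% over the 27305 genes of the table. Gene counts do not say which of several starts was used.

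The long genes spanned 501 to 2305 kb, with a median of 690 kb. CNTNAP2 (chr7:145813094-148118090, 2305.0 kb), PTPRD (2298.8 kb), DLG2 (2173.3 kb), CSMD1 (2059.6 kb) and EYS (1987.2 kb) were the longest. Exons covered a median of 1.62% of the span, against 16.7% in the 11819 shorter autosomal protein-coding genes with at least 0.5 CPM. The long genes had more exonic sequence (median 12182 against 5484 bases), more exons in the transcript with the most exons (20 against 10) and a lower transcript GC content (45.4% against 50%), and they were expressed at a lower level (median 12.4 against 35.7 CPM). Chromosome 3 held 22 of them, chromosome 7 held 16, and chromosomes 1 and 6 held 15 each. In RefSeq, 160 of the 174 also spanned at least 500 kb, and 4 spanned under 250 kb, so that for a few members the length rests on GENCODE's outermost transcripts. The span of 8 members overlapped another counted gene on the same strand, among them CDK14, CADPS2, EGLN3 and TRHDE, and reads shared with that gene cannot be told apart.

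Per kb of exon, the most abundant long gene was UTRN, which codes for the dystrophin relative utrophin, at 22.4 CPM per kb. It was followed by HDAC9, a histone deacetylase (17.0), ROBO1, a receptor for the guidance cue Slit (15.5), GSE1 (12.1) and FAF1, a ubiquitin-binding adaptor (11.7). The lowest values belonged to sparsely counted genes: SHANK2, a postsynaptic scaffold, had 0.0325 CPM per kb of exon and NRG1, a ligand of ERBB receptors, had 0.0362.

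The knockouts changed long genes in both directions. The test was edgeR's quasi-likelihood test over all genes of a comparison, with Benjamini-Hochberg adjusted p-values and a threshold of 0.05. Against control A, ΔWAPL 3.3 differed in 64 of the 170 long genes tested (37.6%), 38 higher and 26 lower, where 8.07% of all genes tested passed. ΔWAPL 1.14 differed from control B in 79 of 170 (46.5%), 53 higher and 26 lower, where 20.1% of all genes passed. ΔSCC4 differed from control A in 52 of 167 (31.1%), 30 higher and 22 lower, where 9.49% of all genes passed. The double knockout differed from control A in 54 of 169 (32%), 22 higher and 32 lower, where 7.95% passed. Between the double knockout and its parent genotype ΔWAPL 3.3, 60 of 169 differed (35.5%), 21 higher and 39 lower in the double knockout, where 10.6% passed.

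A filter on low counts can admit a scarce gene through the group in which it is high, so the counts were also taken over all 174 members with no filter on low counts. They were 64 for ΔWAPL 3.3, 78 for ΔWAPL 1.14, 60 for ΔSCC4, 57 for the double knockout against control A and 62 for the double knockout against ΔWAPL 3.3, where 7.57%, 15.6%, 8.95%, 6.98% and 9.77% of all genes passed, respectively. The limit of 0.5 CPM can do the same. Without their highest group 5 members (ELMO1, ERBB4, KCNQ5, KSR2 and SHANK2) had a mean below it. Among the other members 63 of 169 tested (37.3%) passed in ΔWAPL 3.3, 79 of 169 (46.7%) in ΔWAPL 1.14, 49 of 164 (29.9%) in ΔSCC4, 51 of 166 (30.7%) in the double knockout against control A and 57 of 166 (34.3%) against ΔWAPL 3.3. No label pairs samples across groups. Only for ΔSCC4 and control A did the deviations of every same-numbered pair correlate above 0.1. The block given here thus rests on a pairing chosen from the same counts. With the number as a block, 105 of 167 long genes differed in ΔSCC4, 65 higher and 40 lower, where 46% of all genes did. Leaving out 1 library changed the count for ΔSCC4 to between 35 (without the second control A sample, 5.25% of all genes) and 65 (without the first, 18.3%). The comparisons with control A or ΔWAPL 3.3 share the samples of those groups, so their counts are not separate evidence.

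The share of genes past the threshold was higher in each longer class of gene span from 50 kb upwards, as the plot of shares by span class shows. For ΔWAPL 3.3 it was 6.24% of genes under 10 kb, 5.35% from 10 to 50 kb, 7.56% from 50 to 100 kb, 10.5% from 100 to 200 kb, 15.5% from 200 to 500 kb and 39.4% at 500 kb and over, the last class here including the genes left out by name. For ΔSCC4 the shares of the same 6 classes were 7.05, 7.47, 8.26, 11.7, 19.7 and 32.1%. ΔWAPL 1.14 ran from 17.8% in the shortest class to 46.3% in the longest, and the double knockout against control A from 7.14% to 33.9%. The median size of the log2 fold change, without regard to sign, grew from 0.139 to 0.407 in ΔWAPL 3.3. Between the 2 control groups the share was 1.12% in the longest class.

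**Figure D1:**
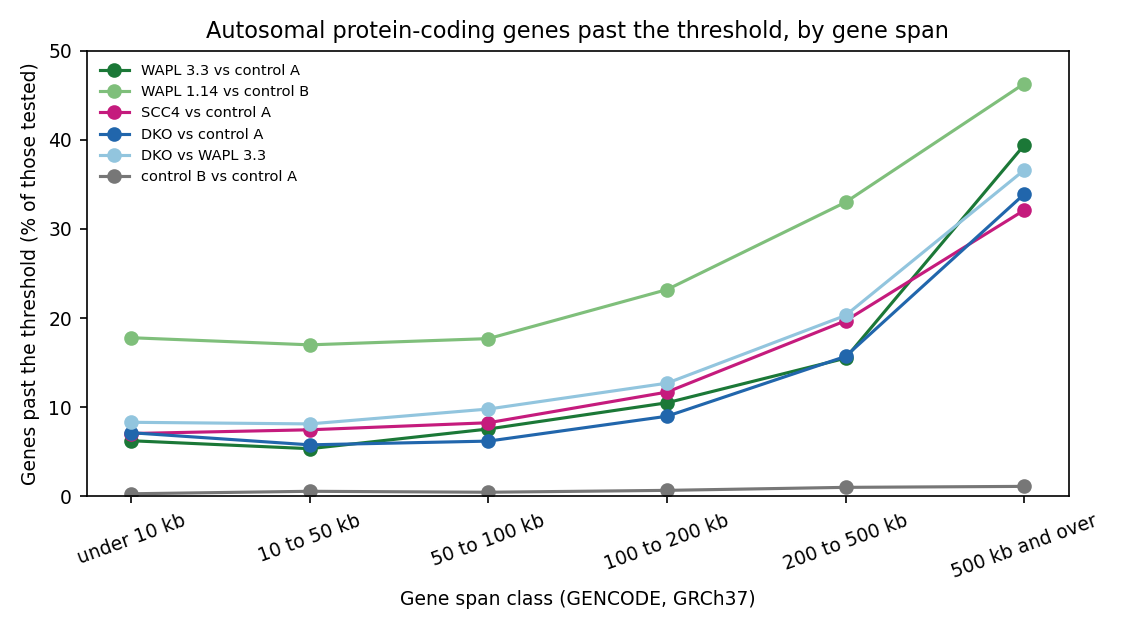
The share of tested autosomal protein-coding genes past the threshold (y axis, %) is plotted by class of gene span (x axis, kb), with a line for each comparison of 2 groups. Every line that holds a knockout is highest at 500 kb and over, from 32.1% (SCC4 against control A) to 46.3% (WAPL 1.14 against control B), while the line of the controls stays at or under 1.12%.

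The long genes were expressed at a lower level than shorter genes, and the shares were therefore also read within classes of mean level. From 0.5 to 5 CPM, 25 of 53 long genes (47.2%) differed in ΔWAPL 3.3 beside 22.7% of shorter genes. In that class 28 of 53 (52.8%) differed in ΔWAPL 1.14 beside 32.7%, and 25 of 50 (50%) in ΔSCC4 beside 25.4%. For the double knockout against control A it was 22 of 52 (42.3%) beside 23.4%. From 5 to 20 CPM, 30 of 59 long genes (50.8%) differed in ΔWAPL 3.3 beside 11.7% of shorter genes, and 31 of 59 (52.5%) in ΔWAPL 1.14 beside 24.2%. From 20 to 80 CPM the shares for ΔWAPL 3.3 were 19.1% of 47 long genes and 3.44% of shorter genes, and for the double knockout against control A 19.1% and 3.09%. Among the 11 long genes above 80 CPM none passed in ΔWAPL 3.3, where 1.99% of shorter genes of that level did, 3 passed in ΔWAPL 1.14 (13.8% of shorter genes), 2 in ΔSCC4 (2.76%) and 1 in the double knockout (1.42%). Within the list, larger changes went with lower levels: across members, Spearman's rho of the size of the log2 fold change with mean CPM was -0.43 in ΔWAPL 3.3 (n = 170), -0.36 in ΔWAPL 1.14 (n = 170), -0.50 in ΔSCC4 (n = 167) and -0.41 in the double knockout (n = 169). With span, once above 500 kb, rho was 0.05, -0.02, 0.03 and 0.05. These describe genes that share libraries, and carry no p-value.

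As a group the long genes moved little in median level. Relative to the median of all genes tested, their median log2 fold change was -0.071 in ΔWAPL 3.3, 0.172 in ΔWAPL 1.14, 0.111 in ΔSCC4, -0.041 in the double knockout against control A and -0.040 against ΔWAPL 3.3. The SD of this median between replicate libraries was 0.207, 0.094, 0.248, 0.211 and 0.094 in the same order, so that only the median of ΔWAPL 1.14 stood beyond that spread. All 3 samples of clone 1.14 were above the mean of their controls in the median long gene, by 0.195, 0.136 and 0.251 on the log2 scale. Without the third sample of control A the medians of ΔWAPL 3.3 and of the double knockout turned to 0.103 and 0.074, and without the third ΔSCC4 sample that of ΔSCC4 turned to -0.028.

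The control A libraries differed among themselves in the long genes. In order of replicate number, the median long gene of the control A libraries stood at -0.288, 0.004 and 0.280 on the log2 scale relative to their mean, and the summed level of the 174 genes was 3714, 4387 and 5424 CPM. In the same libraries Spearman's rho between each gene's deviation and its transcript GC content was 0.68, -0.39 and -0.57. The part of this gradient in the results was not tested, and an offset for GC content was added as an alternative after the data were seen. With it, 72 long genes passed in ΔWAPL 3.3, 85 in ΔWAPL 1.14, 76 in ΔSCC4 and 63 in the double knockout against control A. The shares of all genes past the threshold with the offset are not given here, so these counts do not set long genes apart from other genes. The plot of libraries shows the level of the long genes beside this measure.

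**Figure D2:**
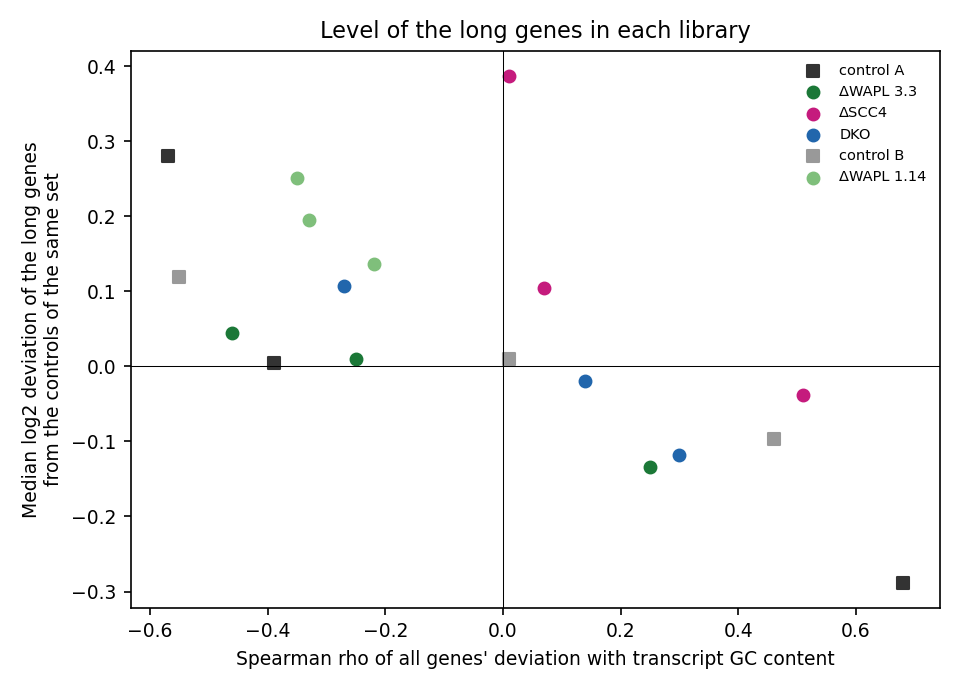
Each point is 1 of the 18 libraries: the x axis gives Spearman's rho between transcript GC content and the deviation of all genes from the controls of the same set, and the y axis the median log2 deviation of the long genes (squares, controls; circles, knockouts). The first control A library lies at the lower right (0.68 and -0.288), the third at the upper left (-0.57 and 0.280), and the 3 libraries of ΔWAPL 1.14 lie together above 0.

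The 2 ΔWAPL clones, which were compared with separate controls, shared many of the changed long genes. Of the 169 members tested in both, 52 passed in both clones, 47 of them in the same direction (27% of the 174 members; 5.59% of all genes tested in both clones passed in the same direction). Higher in both were 31 and lower in both were 16. The 5 with opposite directions were ATP8A2, CNTNAP2, LAMA2, NELL1 and PTPRN2. Of the 12415 genes tested in both clones, 41 passed in opposite directions. Across the 169 members the log2 fold changes of the clones had a Spearman rho of 0.65 and a Pearson r of 0.67, and 109 (64.5%) had the same sign. Across all genes tested rho was 0.53, r was 0.67, and 68.7% had the same sign. Of the 31 genes higher in both clones, 18 passed in both whichever library was left out, and of the 16 lower genes 11 did.

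**Figure D3:**
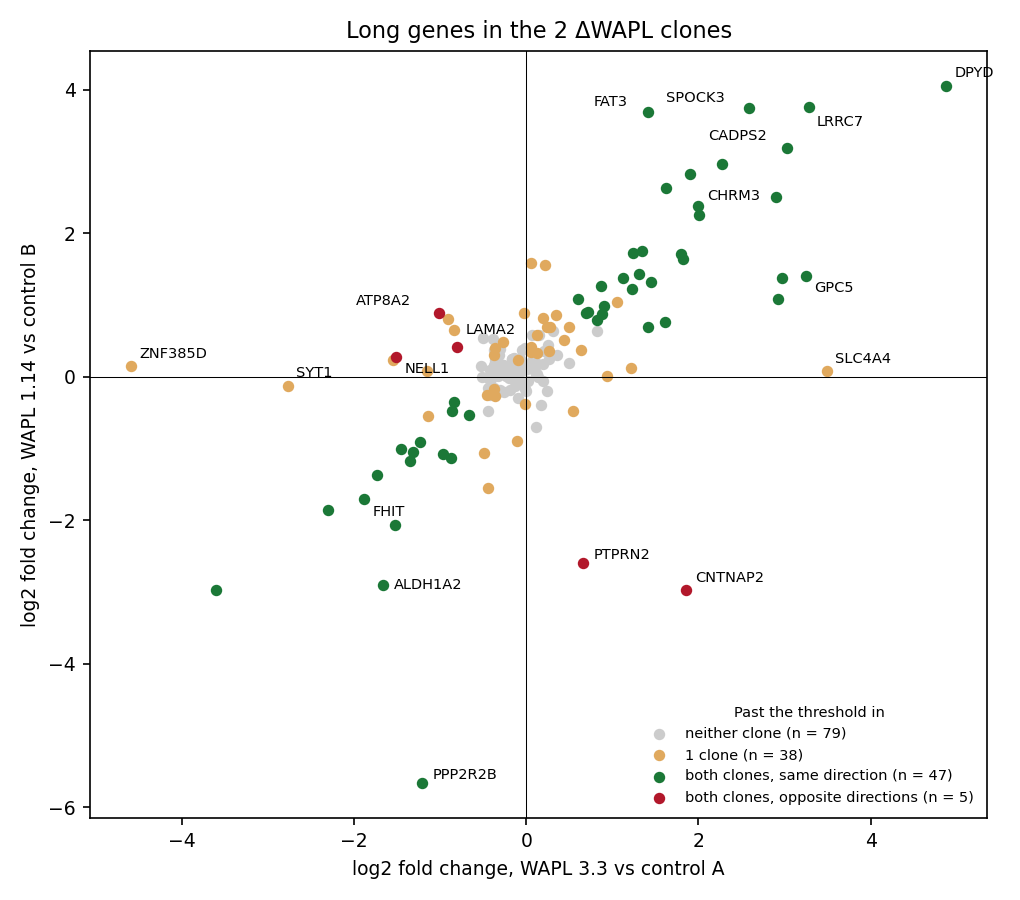
Each point is a long gene, with its log2 fold change in ΔWAPL 3.3 against control A on the x axis and in ΔWAPL 1.14 against control B on the y axis, coloured by the clones in which it passed the threshold. Green points (n = 47) lie in the upper right, such as DPYD (4.88 and 4.06), and lower left, such as FHIT (-1.88 and -1.70), while ZNF385D (-4.59 and 0.15), SLC4A4 (3.49 and 0.08) and CNTNAP2 (1.86 and -2.97) lie away from the diagonal.

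The steepest shared rise was that of DPYD, the enzyme that begins the breakdown of uracil and thymine and a common fragile site gene (chr1:97543299-98460556, minus strand). Control A held 0, 0.0619 and 0.119 CPM, ΔWAPL 3.3 held 2.1, 2.26 and 1.86 CPM, control B 0.136, 0.202 and 0.281 CPM and ΔWAPL 1.14 4.25, 3.28 and 3.39 CPM. All ΔWAPL samples lay above all controls. The log2 fold change was 4.88 ± 0.48 (SE; adjusted p = 6.13e-06) in clone 3.3 and 4.06 ± 0.27 (adjusted p = 8.13e-05) in clone 1.14. Control A had 3 DPYD counts in all against 102 in ΔWAPL 3.3, a ratio of 33.3 with an exact interval of 11.1 to 164 that covers counting error only. The double knockout stayed high, with 1.48, 1.54 and 0.964 CPM, whereas ΔSCC4 alone held 0.324, 0.101 and 0.138 CPM.

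Each long gene was assigned to a class by its role. Over the 4 comparisons of a knockout with its controls, 27.4% of the 12870 genes tested in any of them and 62.1% of the long genes passed in at least 1. The shares of long genes and of their classes include ELMO1, ERBB4, KCNQ5, KSR2 and SHANK2. These met the limit of level only through their highest group, and each passed in at least 1, so their calls describe how they were chosen. Of the long genes 37.6% passed in ΔWAPL 3.3, 46.5% in clone 1.14, 31.1% in ΔSCC4 and 32% in the double knockout, and of all genes 8.07%, 20.1%, 9.49% and 7.95% in the same order.

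Among the 23 adhesion and axon guidance genes, 21 (91.3%) passed in at least 1 of the 4. In ΔWAPL 3.3 13 of 23 passed (56.5%), 8 higher and 5 lower, and in ΔWAPL 1.14 16 of 23 (69.6%), 11 higher and 5 lower. ΔSCC4 had 7 higher and 5 lower of 22 (54.5%), and the double knockout 5 higher and 7 lower of 23 (52.2%). Each share was above that of all long genes, a difference that was not tested.

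CLSTN2, a calsyntenin of the postsynaptic membrane, rose in both ΔWAPL clones. Control A held 1.82, 1.30 and 1.91 CPM and ΔWAPL 3.3 8.14, 8.13 and 8.49 CPM, while ΔSCC4 held 0.907, 0.808 and 1.10 and the double knockout 2.50, 2.15 and 1.99 CPM. In set B it went from 1.23, 1.75 and 1.52 to 12.1, 12.4 and 11 CPM. The log2 fold changes were 2.28 ± 0.20 and 2.97 ± 0.13 in the clones, against -0.82 in ΔSCC4 (adjusted p = 0.11, and 0.019 with the replicate block) and 0.40 in the double knockout (adjusted p = 0.43), and the double knockout was below ΔWAPL 3.3 by -1.89 ± 0.17 (adjusted p = 6.93e-07).

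SPOCK3, a secreted proteoglycan of the testican family, rose in both clones too. It went from 1.5, 2.97 and 2.86 to 15, 16.4 and 13.4 CPM in clone 3.3 and from 1.77, 1.41 and 2.98 to 28.2, 27.2 and 30.4 CPM in clone 1.14, and the double knockout held 2.16, 2.46 and 1.25 CPM, within the range of control A but for its lowest sample. In ΔSCC4 it was lower than in control A by -1.49 on the log2 scale (adjusted p = 0.042), a call lost without control A sample 2 (0.17) or 3 (0.054) or ΔSCC4 sample 1 (0.13) or 3 (0.069). Its difference between the double knockout and ΔWAPL 3.3 was -2.94 ± 0.20 (adjusted p = 4.05e-08). SPOCK3 lies at the edge of the definition, with a span of 501.4 kb.

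CSMD1, a large membrane protein that regulates complement, rose in every knockout line. Control A stood at 6.24, 6.19 and 6.26 CPM, ΔWAPL 3.3 at 25.2, 27.1 and 24.0, ΔSCC4 at 17.9, 19.4 and 18.9 and the double knockout at 10.2, 12.2 and 11.7 CPM. No knockout sample reached down to a control. Control B stood at 7.56, 7.39 and 7.31 CPM and ΔWAPL 1.14 at 36.9, 36.2 and 33.9 CPM, a log2 fold change of 2.25 ± 0.07. The cell adhesion molecule SDK1 differed in order, with the highest level in ΔSCC4: 1.5, 1.98 and 2.51 CPM in control A, 3.99, 4.38 and 4.91 in ΔWAPL 3.3, 28.6, 25.3 and 25 in ΔSCC4 and 13.0, 11.4 and 15 in the double knockout.

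FAT3, a giant protocadherin-like receptor, rose more in clone 1.14 (from 0.545, 0.605 and 0.956 to 9.14, 9.17 and 9.87 CPM) than in clone 3.3 (from 0.260, 0.619 and 0.537 to 1.10, 1.70 and 1.13 CPM), a difference between the clones of -2.27 ± 0.44 on the log2 scale (adjusted p = 0.011). Without the first control A sample or the second ΔWAPL 3.3 sample its adjusted p in clone 3.3 was 0.072 or 0.13, and without control A sample 2 or 3 that of the difference was 0.079 or 0.059. The guidance receptor ROBO2 fell in both clones, from 11.8, 14.5 and 15.6 to 5.44, 5.44 and 4.64 CPM in clone 3.3 (-1.45 ± 0.17) and from 12.2, 10.0 and 13.3 to 5.90, 6.37 and 5.51 CPM in clone 1.14 (-1.01 ± 0.12). It stayed low in the double knockout (4.50, 6.03 and 5.73 CPM) and stood at 10.2, 10.9 and 14.9 CPM in ΔSCC4.

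CNTNAP2, a neurexin-related protein of the axon and the longest gene of the set, moved in opposite directions in the 2 clones. It rose from 3.58, 5.01 and 6.74 to 22.1, 19.2 and 15.2 CPM in ΔWAPL 3.3 and fell from 12, 9.54 and 12.5 to 1.33, 1.43 and 1.63 CPM in ΔWAPL 1.14. The difference between the clones, tested as an interaction, was 4.84 ± 0.31 (adjusted p = 6.02e-07). The double knockout held the highest level, 52.9, 64.2 and 41.1 CPM. NELL1, a secreted protein with roles in bone formation, fell stepwise in set A, from 39.1, 41.7 and 34.4 CPM in control A to 15.1, 11.5 and 14.3 in ΔWAPL 3.3, 8.49, 9.39 and 7.30 in ΔSCC4 and 2.39, 2.34 and 2.67 in the double knockout. Control B held only 12.7, 12.6 and 12.7 CPM, and the 2 control groups differed by -1.61 ± 0.13 (adjusted p = 0.0018; 0.055 without the second control A sample).

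Of the 13 channels and transmitter receptors, 11 (84.6%) passed in at least 1 comparison with controls, beside 62.1% of all long genes and 27.4% of all genes. In ΔWAPL 3.3 9 of 12 passed (75%), 6 higher and 3 lower, in ΔWAPL 1.14 8 of 13 (61.5%), 5 higher and 3 lower, and in ΔSCC4 7 of 12 (58.3%), 4 higher and 3 lower. In the double knockout 3 of 11 passed (27.3%), below the 32% of all long genes. The muscarinic acetylcholine receptor CHRM3 (chr1:239549865-240078752) rose in both clones and fell in ΔSCC4. It stood at 1.82, 2.66 and 3.58 CPM in control A, at 11.4, 12.4 and 8.89 CPM in ΔWAPL 3.3, at 0, 0 and 0.0689 CPM in ΔSCC4, and at 1.88, 2.09 and 1.76 CPM in the double knockout. In set B it went from 3.07, 2.89 and 3.49 to 17.4, 16.5 and 15.7 CPM. ΔSCC4 had 1 CHRM3 count in all against 131 in control A, a ratio of 108 with an exact interval of 19.1 to 4303, and the double knockout was below ΔWAPL 3.3 by -2.52 ± 0.18 (adjusted p = 9.13e-08).

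The metabotropic glutamate receptor GRM8 rose in both clones, from 1.82, 2.48 and 2.51 to 8.49, 8.13 and 7.43 CPM (1.80 ± 0.19) and from 2.11, 2.62 and 3.21 to 8.55, 8.22 and 9.69 CPM (1.71 ± 0.15). The kainate receptor subunit GRIK2 fell in both, by -0.87 ± 0.20 and -1.13 ± 0.10, its call in clone 3.3 being lost without the third control A sample (adjusted p = 0.059) or the second ΔWAPL 3.3 sample (0.076). DPP10, a partner of A-type potassium channels, fell from 20.6, 27.0 and 27.7 to 7.64, 8.27 and 7.03 CPM in clone 3.3 and from 19.7, 16.5 and 23.5 to 6.32, 6.67 and 10.4 CPM in clone 1.14, remained low in the double knockout (7.57, 11.5 and 7.89 CPM) and stood at 23.7, 25.1 and 28.8 CPM in ΔSCC4. The potassium channel KCNQ5 rose in ΔSCC4. It was scarce in control A (0.0650, 0.124 and 0.239 CPM) and in ΔWAPL 3.3 (0.200, 0.283 and 0.265 CPM) and at 4.15, 4.54 and 4.82 CPM in ΔSCC4, a log2 fold change of 4.88 ± 0.33 (adjusted p = 9.21e-06). It was a member only through ΔSCC4, since its mean over the other 15 samples was 0.463 CPM.

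KCNMB2, an auxiliary subunit of calcium-activated potassium channels, rose in ΔWAPL 3.3 (from 0.260, 0.309 and 0.298 to 2.80, 1.84 and 2.12 CPM) and in ΔSCC4 (1.49, 1.51 and 1.10 CPM), but stood at 0.171, 0.369 and 0.113 CPM in the double knockout. ANO5, a member of the anoctamin family with a span of 500.9 kb, was the most abundant gene of this class. It rose by 0.70 to 0.89 on the log2 scale in both clones and in ΔSCC4, and each of these 3 calls was lost when certain libraries were left out, for instance the second control A sample (adjusted p = 0.11 in clone 3.3 and 0.19 in ΔSCC4) or the first ΔWAPL 1.14 sample (0.083).

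Of the 18 scaffolds, 11 (61.1%) passed in at least 1 comparison with controls, beside 62.1% of all long genes and 27.4% of all genes. LRRC7, or densin, a scaffold of the postsynaptic density, rose more than any other scaffold in both clones. Control A held 1.24, 2.04 and 2.62 CPM and ΔWAPL 3.3 19.3, 21.8 and 17.3 CPM, and control B held 1.91, 1.41 and 2.36 and ΔWAPL 1.14 28.8, 22.6 and 27.2 CPM. ΔSCC4 (1.36, 1.72 and 1.65 CPM) and the double knockout (2.45, 2.03 and 2.16 CPM) stood within the range of control A. The log2 fold changes were 3.28 ± 0.23 and 3.76 ± 0.18 in the clones and -3.13 ± 0.16 (adjusted p = 2.15e-09) from ΔWAPL 3.3 to the double knockout.

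RIMS2, a scaffold of the presynaptic active zone, rose in both clones (1.45 ± 0.17 and 1.32 ± 0.12) and in ΔSCC4 (1.08 ± 0.20), with 24.1, 24.2 and 21.0 CPM in ΔWAPL 3.3, 14.1, 21.9 and 17.6 in ΔSCC4 and 6.63, 8.60 and 9.84 in control A. The double knockout, with 8.20, 10.9 and 6.58 CPM, overlapped control A. FRMD4A, a scaffold of cell polarity, rose to a like level in every line: 3.97, 4.39 and 5.31 CPM in control A against 18, 16.6 and 14.3 in ΔWAPL 3.3, 15, 17.8 and 19.6 in ΔSCC4 and 21.2, 18.9 and 17.1 in the double knockout, and 7.29, 6.58 and 6.47 in control B against 22.7, 19.7 and 21.4 in ΔWAPL 1.14. Its log2 fold changes lay between 1.64 ± 0.09 and 2.06 ± 0.16.

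KSR2, a scaffold of the MAP kinase cascade, was close to absent from control A (0.0650, 0.124 and 0.179 CPM) and ΔWAPL 3.3 (0.0999, 0.0707 and 0.0664 CPM) and stood at 4.27, 4.18 and 4.88 CPM in the double knockout. ΔSCC4 samples were uneven, at 0.907, 0.202 and 1.10 CPM. The double knockout was above control A by 5.08 ± 0.30 and above ΔWAPL 3.3 by 5.65 ± 0.34 on the log2 scale (adjusted p = 3.31e-06 and 1.03e-08). KSR2 was a member only through the double knockout, since its mean over the other 15 samples was 0.276 CPM, so these values describe how it was chosen. SHANK2 was higher in ΔSCC4 (1.04, 0.909 and 2.00 CPM) and in the double knockout (1.31, 1.72 and 0.908 CPM) than in control A (0.0650, 0.124 and 0.239 CPM), and ΔWAPL 3.3 held 0.200, 0.141 and 0.133 CPM. It too was a member only through its highest group, ΔSCC4.

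DLG2, the synaptic scaffold PSD-93, fell in every line. Control A held 8.46, 9.66 and 14.1 CPM, ΔWAPL 3.3 4.74, 4.38 and 3.58, ΔSCC4 4.02, 4.74 and 7.57 and the double knockout 1.76, 2.09 and 2.33 CPM. Control B held 9.40, 7.59 and 9 CPM and ΔWAPL 1.14 4.25, 3.10 and 4.30 CPM, without overlap. The fall in ΔSCC4 (-0.98 ± 0.27, adjusted p = 0.046) lost its call without control A sample 2 or 3 (adjusted p = 0.099 and 0.09) or the first or second ΔSCC4 sample (0.13 and 0.15). PPFIA2, a liprin of the presynapse, fell in the 3 knockout lines of set A, from 56.5, 73.8 and 101 CPM to 33.6, 39.1 and 33.0 in ΔWAPL 3.3, 28.3, 40.0 and 43.2 in ΔSCC4 and 37.6, 44.8 and 36.3 in the double knockout, where the call was lost without the first double knockout sample (adjusted p = 0.081).

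Of the 28 genes of the cytoskeleton, motors and small GTPase regulators, 17 (60.7%) passed in at least 1 comparison with controls, beside 62.1% of all long genes and 27.4% of all genes. In ΔWAPL 3.3 8 were higher and 2 lower of 27 tested, in ΔWAPL 1.14 9 and 3 of 27, in ΔSCC4 4 and 2 of 27 and in the double knockout 7 and 1 of 27. MTUS2, a microtubule-associated protein, went from 0.976, 0.805 and 0.954 CPM in control A to 2.55, 1.77 and 2.19 in ΔWAPL 3.3, 3.17, 1.72 and 2.55 in ΔSCC4 and 3.19, 3.26 and 3.52 in the double knockout, and its call in ΔSCC4 was lost without the second control A sample (adjusted p = 0.052). NAV2, a neuron navigator that binds microtubules, went from 1.63, 1.61 and 2.03 CPM to 5.79, 5.58 and 4.98, to 4.28, 4.14 and 7.09 and to 4.50, 5.10 and 4.48 CPM in the same order. In set B the groups were closer, 3.95, 2.82 and 4.89 against 7.81, 5.48 and 6.90 CPM, and the call (0.77 ± 0.21, adjusted p = 0.042) was lost without the first control B sample (0.13) or any of the ΔWAPL 1.14 samples (0.051 to 0.16).

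DLC1, an inactivator of small GTPases, stood at 2.41, 3.16 and 3.64 CPM in control A and 8.64, 9.12 and 7.10 in ΔWAPL 3.3, and reached 24.3, 26.1 and 23.5 CPM in the double knockout. Its log2 fold change was 3.00 ± 0.16 in the double knockout and 0.69 ± 0.13 in ΔWAPL 1.14. NEBL, a nebulin relative of actin filaments, rose by 1.23 ± 0.21 in ΔWAPL 3.3, 1.22 ± 0.16 in ΔWAPL 1.14 and 1.47 ± 0.20 in the double knockout, while ΔSCC4, at 3.69, 5.25 and 3.92 CPM, overlapped control A (3.84, 5.08 and 6.74 CPM). UTRN, the most abundant long gene, passed in none of these comparisons, and its log2 fold changes were -0.39 ± 0.17, 0.53 ± 0.17, 0.29 ± 0.18 and -0.13 ± 0.18 in ΔWAPL 3.3, clone 1.14, the ΔSCC4 line and the double knockout, in that order. With the replicate block UTRN passed in ΔSCC4 (0.32, adjusted p = 0.0033), as did a large share of all genes in that fit.

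Of the 16 kinases, phosphodiesterases and other signalling enzymes, 9 (56.2%) passed in at least 1 comparison with controls, beside 62.1% of all long genes and 27.4% of all genes. PPP2R2B (chr5:145960305-146464347), a regulatory subunit of protein phosphatase 2A, fell in every line. It stood at 7.42, 7.12 and 5.96 CPM in control A, 3.69, 2.76 and 2.39 in ΔWAPL 3.3 and 1.14, 0.923 and 0.624 in the double knockout, and had no count in any ΔSCC4 sample. With the floor set at 3 counts over the group, PPP2R2B was at least 90.5-fold lower in ΔSCC4 than in control A. In set B it went from 6.68, 4.97 and 3.99 to 0.106, 0.0596 and 0.121 CPM, a log2 fold change of -5.66 ± 0.40 against -1.21 ± 0.20 in clone 3.3, and the clones differed by 4.47 ± 0.49 (adjusted p = 0.000108).

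FHIT, a diadenosine triphosphate hydrolase at the most fragile common site of the genome, fell in both ΔWAPL clones. In ΔSCC4 and the double knockout it differed from control A by -0.10 (adjusted p = 0.72) and -0.31 (0.21) on the log2 scale. Control A held 15.5, 17.5 and 16.7 CPM, ΔWAPL 3.3 5.24, 4.17 and 4.11, ΔSCC4 16.9, 15.3 and 14.0 and the double knockout 12.4, 13.9 and 13.8 CPM. In set B it went from 10.3, 13.0 and 12.7 to 3.83, 3.63 and 3.69 CPM. The log2 fold changes were -1.88 ± 0.17 and -1.70 ± 0.12, and the double knockout was above ΔWAPL 3.3 by 1.55 ± 0.15 (adjusted p = 2.45e-06).

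EGLN3, a prolyl hydroxylase of the hypoxia response, fell by -0.97 ± 0.15 in ΔWAPL 3.3, -1.08 ± 0.08 in ΔWAPL 1.14 and -1.37 ± 0.14 in ΔSCC4, with 34.0, 32.3 and 29.7 CPM in control A and 13.5, 11.9 and 11.6 CPM in ΔSCC4. The double knockout, at 23.1, 25.9 and 26.0 CPM, was above ΔWAPL 3.3 (16.0, 16.9 and 16.6 CPM) by 0.60 ± 0.12 (adjusted p = 0.0041). CDK14, a cyclin-dependent kinase, rose in ΔWAPL 1.14 (from 18.5, 16.7 and 20.1 to 41.3, 36.8 and 40.1 CPM) and fell in the double knockout to 3.93, 3.26 and 2.95 CPM, from 13.5, 19.5 and 19.8 CPM in control A and 29.4, 27.5 and 23.8 CPM in ΔWAPL 3.3. Its rise in clone 3.3 (0.60 ± 0.17, adjusted p = 0.04) lost its call without the first or second sample of control A (0.082 and 0.088) or of ΔWAPL 3.3 (0.12 and 0.17). SH3RF3, a ubiquitin ligase of stress kinase signalling, was highest in ΔSCC4, at 3.82, 2.93 and 3.17 CPM against 0.260, 0.309 and 0.477 CPM in control A (3.21 ± 0.29).

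Of the 22 transcription and chromatin factors, 12 (54.5%) passed in at least 1 comparison with controls, beside 62.1% of all long genes and 27.4% of all genes. In the double knockout 8 of 22 passed (36.4%, beside 32% of long genes and 7.95% of all genes), all lower. In ΔWAPL 3.3 1 was higher and 6 lower of 22 (31.8%, beside 37.6% and 8.07%). ΔWAPL 1.14 had 4 higher and 4 lower, and ΔSCC4 3 higher and 4 lower, of 22 each. HDAC9 stood at 321, 431 and 474 CPM in control A, at 162, 211 and 221 CPM in ΔSCC4 and at 204, 226 and 177 CPM in the double knockout (-1.05 ± 0.17 and -1.01 ± 0.15), and in ΔWAPL 3.3 at 342, 329 and 302 CPM.

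MECOM, or EVI1, a zinc-finger factor of blood stem cells and leukaemia, rose most in ΔSCC4, from 22.6, 32.1 and 35.7 to 77.7, 91.6 and 90.7 CPM (1.52 ± 0.18), and by 0.90 ± 0.14 in ΔWAPL 1.14. In ΔWAPL 3.3 (0.72 ± 0.19, adjusted p = 0.024) the call was lost without the second control A sample (0.07) or the first or second ΔWAPL 3.3 sample (0.092 and 0.1). FOXP2, a forkhead factor known for its role in speech, went in opposite directions in set A: 5.92, 8.42 and 10.4 CPM in control A, 2.65, 3.46 and 2.46 in ΔWAPL 3.3, 14.5, 21.1 and 15.6 in ΔSCC4 and 1.59, 1.97 and 1.42 in the double knockout. The rise in ΔSCC4 lost its call without the second control A sample (adjusted p = 0.07) or the second ΔSCC4 sample (0.059). In ΔWAPL 1.14 FOXP2 stood at 5.74, 6.31 and 6.54 CPM beside 5.65, 3.43 and 6.47 in control B, and the clones differed by -1.78 ± 0.34 (adjusted p = 0.011).

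ZNF385D, a zinc-finger protein, was the long gene that fell most in ΔWAPL 3.3, from 1.82, 2.1 and 2.39 to 0.0999, 0.0707 and 0.0664 CPM (-4.59 ± 0.41, adjusted p = 2.41e-06). It had no count in the double knockout, which was at least 36.2-fold lower than control A with the floor at 3 counts over the group. Clone 1.14, at 3.19, 2.68 and 3.69 CPM, overlapped control B at 3.27, 2.02 and 3.21 CPM, and the clones differed by -4.73 ± 0.47 (adjusted p = 4.33e-05). SOX6, a factor of red cell and cartilage development, fell in both clones (-1.31 ± 0.20 and -1.04 ± 0.10) and in the double knockout (-1.16 ± 0.20). GLIS3, a factor of pancreas and thyroid, fell most in ΔSCC4 (-1.93 ± 0.24; 5.46, 6.93 and 7.93 against 1.43, 1.62 and 2.27 CPM). The smaller falls of GLIS3 lost their calls without the second ΔWAPL 3.3 sample (0.06), the first double knockout sample (0.098) or the first ΔWAPL 1.14 sample (0.089), among others.

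Of the 16 trafficking and membrane proteins, 7 (43.8%) passed in at least 1 comparison with controls, beside 62.1% of all long genes and 27.4% of all genes. CADPS2, which primes dense-core vesicles for release, rose from 0.325, 0.495 and 0.298 to 3.20, 3.46 and 2.72 CPM in ΔWAPL 3.3 and from 1.29, 1.41 and 0.844 to 10.7, 11 and 10.7 CPM in ΔWAPL 1.14 (3.03 ± 0.29 and 3.19 ± 0.15), and stayed high in the double knockout (3.70, 3.69 and 3.46 CPM). ΔSCC4 held 0.518, 0.606 and 0.413 CPM. The calcium sensor of synaptic vesicles SYT1 fell in the 3 knockout lines of set A: 12, 17.0 and 17.6 CPM in control A, 2.30, 2.62 and 1.99 in ΔWAPL 3.3, 4.28, 4.64 and 4.75 in ΔSCC4 and 0.797, 0.861 and 0.681 in the double knockout, against 14.0, 9.13 and 13.7 in control B and 11.8, 11.4 and 11.1 in ΔWAPL 1.14. The clones differed in SYT1 by -2.64 ± 0.27 (adjusted p = 5.07e-05).

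SLC4A4, a sodium bicarbonate cotransporter, differed between the clones in the other direction (3.43 ± 0.62, adjusted p = 0.0073). It was scarce in control A (0, 0.186 and 0.179 CPM) and stood at 1.70, 1.56 and 1.19 CPM in ΔWAPL 3.3 and 1.30, 1.51 and 1.58 CPM in ΔSCC4, while control B held 0.681, 0.739 and 0.844 CPM and ΔWAPL 1.14 0.584, 0.715 and 1.15 CPM. LRP1B, a giant relative of the LDL receptor, rose in ΔSCC4 from 1.89, 1.79 and 3.46 to 8.49, 11.4 and 9.85 CPM (2.04 ± 0.25) and differed by -0.19 ± 0.27 in ΔWAPL 3.3 (adjusted p = 0.82).

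Among the 19 metabolic and other genes, 9 (47.4%) passed in at least 1 comparison with controls, beside 62.1% of all long genes and 27.4% of all genes, DPYD among them. ALDH1A2, which makes retinoic acid, fell from 13.1, 13.3 and 12.5 to 4.74, 3.39 and 4.25 CPM in ΔWAPL 3.3, to 1.71, 1.91 and 1.82 CPM in the double knockout and from 33.5, 32.8 and 33.0 to 3.83, 4.35 and 5.21 CPM in ΔWAPL 1.14, and ΔSCC4 held 14.4, 14.7 and 15.4 CPM. The control groups of the 2 sets differed, by 1.34 ± 0.12 (adjusted p = 0.0018; 0.055 without the second control A sample), and so did the clones, by 1.26 ± 0.19. GALNT13, which starts mucin-type glycans, rose in both clones (1.31 ± 0.16 and 1.44 ± 0.11) and in the double knockout (1.08 ± 0.14). MGAT4C, a gene of N-glycan branching, stood at 4.99, 4.67 and 5.44 CPM in ΔWAPL 3.3 and 5.40, 3.47 and 5.43 CPM in control A, and dropped to 0.342, 0.246 and 0.454 CPM in the double knockout (-3.75 ± 0.31 against control A).

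Of the 7 receptor kinases, phosphatases and their ligands, 4 (57.1%) passed in at least 1 comparison with controls, beside 62.1% of all long genes and 27.4% of all genes. ERBB4, a receptor of neuregulins, rose in ΔWAPL 3.3 from 0.0650, 0.248 and 0.298 to 1.85, 2.26 and 2.52 CPM (3.34 ± 0.39), the group through which alone it was a member, and in the double knockout stood at 1.02, 0.800 and 0.681 CPM. In set B it stood at 0.545, 0.470 and 0.731 CPM in control B and 0.478, 0.238 and 0.424 CPM in ΔWAPL 1.14. Its ligand NRG1 was lower in both lines without SCC4: 1.63, 0.928 and 0.954 CPM in control A, 1.35, 1.34 and 0.995 in ΔWAPL 3.3, 0.0648, 0 and 0.0689 in ΔSCC4 and 0.171, 0.0615 and 0.113 in the double knockout. ΔSCC4 had 2 NRG1 counts in all against 56 in control A, a ratio of 23.1 with an exact interval of 6.11 to 196. PTPRD, the second longest member, passed in none of the 4, with log2 fold changes of -0.31 ± 0.20, -0.18 ± 0.10, -0.43 ± 0.24 and -0.47 ± 0.22. In ΔSCC4 it passed with the replicate block (-0.41, adjusted p = 0.0015), as did a large share of all genes in that fit.

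The class of RNA-binding proteins had 2 members. CELF2, a regulator of splicing, rose in both clones, from 28.2, 41.2 and 51.8 to 80.9, 85.2 and 58.9 CPM (0.88 ± 0.20; adjusted p = 0.067 without the second ΔWAPL 3.3 sample) and from 46.5, 37.6 and 48.9 to 82.8, 81.8 and 81.3 CPM (0.88 ± 0.10), and fell from ΔWAPL 3.3 to the double knockout (-0.70 ± 0.15, adjusted p = 0.0058). The other, RBMS3, passed in ΔSCC4 (1.69 on the log2 scale, adjusted p = 0.0027). The role of 10 members was not assigned, and 5 of these (50%) passed in at least 1 comparison with controls. LUZP2, a leucine zipper protein, was among them and fell in all 4, from 4.42, 5.20 and 7.22 CPM in control A to 2.55, 1.77 and 1.53 in ΔWAPL 3.3, 0.453, 0.909 and 1.31 in ΔSCC4 and 1.65, 2.21 and 2.55 in the double knockout. In ΔWAPL 1.14 (-2.06 ± 0.38) the call was lost without the first control B or the second ΔWAPL 1.14 sample (adjusted p = 0.051 and 0.052).

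Over the 4 comparisons with controls, 108 of the 174 long genes (62.1%) passed in at least 1, where 27.4% of all genes did. The 108 include ELMO1, ERBB4, KCNQ5, KSR2 and SHANK2, which were members only through their highest group. Of the long genes 31 passed in exactly 1 (17.8%, beside 16.9% of all genes), 27 in 2 (15.5% beside 5.55%), 36 in 3 (20.7% beside 3.26%) and 14 in all 4 (8.05% beside 1.69%). Of the 14, 6 were higher in all 4 (CSMD1, FAT3, FRMD4A, MTUS2, NAV2 and SDK1), 6 were lower in all 4 (DLG2, GLIS3, LUZP2 and PPP2R2B among them), and LAMA2 and NELL1 were lower in 3 and higher in ΔWAPL 1.14. The rise of NELL1 there was small (0.28, adjusted p = 0.042) and was lost without any 1 of 5 libraries, namely control B sample 1 (0.097), 2 (0.066) or 3 (0.05) or ΔWAPL 1.14 sample 1 (0.14) or 3 (0.15), that of NAV2 (0.77, adjusted p = 0.042) without control B sample 1 (0.13) or ΔWAPL 1.14 sample 1 (0.16), 2 (0.051) or 3 (0.13), and the fall of LAMA2 in ΔSCC4 was lost without the second control A sample (0.066). CSMD1, FRMD4A, SDK1 and PPP2R2B kept all 4 calls whichever library was left out. In all, 16 long genes were higher in some lines and lower in others. The shares of all genes with these patterns of direction were not counted. The 3 comparisons of set A share the control A samples. The plot of 6 such genes shows the values of both control groups.

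**Figure D4:**
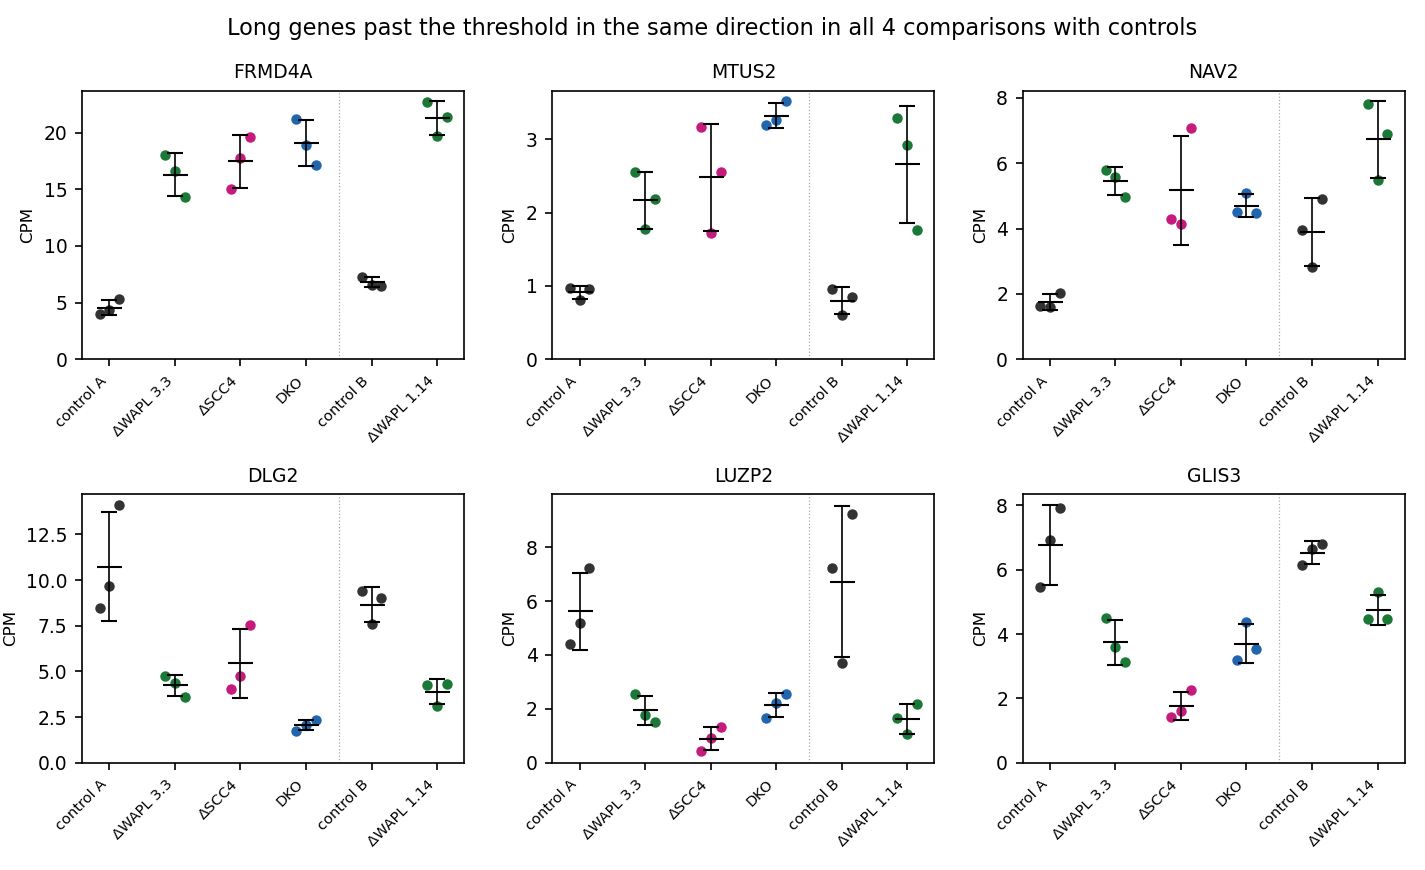
CPM (y axis, linear, from 0) of 6 long genes in the 3 samples of each group (points; the bar gives the mean and SD of the 3), with set A left and set B right of the dotted line. FRMD4A, MTUS2 and NAV2 are higher, and DLG2, LUZP2 and GLIS3 lower, in each knockout group than in the controls of its set; for NAV2 control B (2.82 to 4.89 CPM) lies above control A (1.61 to 2.03 CPM).

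**Figure D5:**
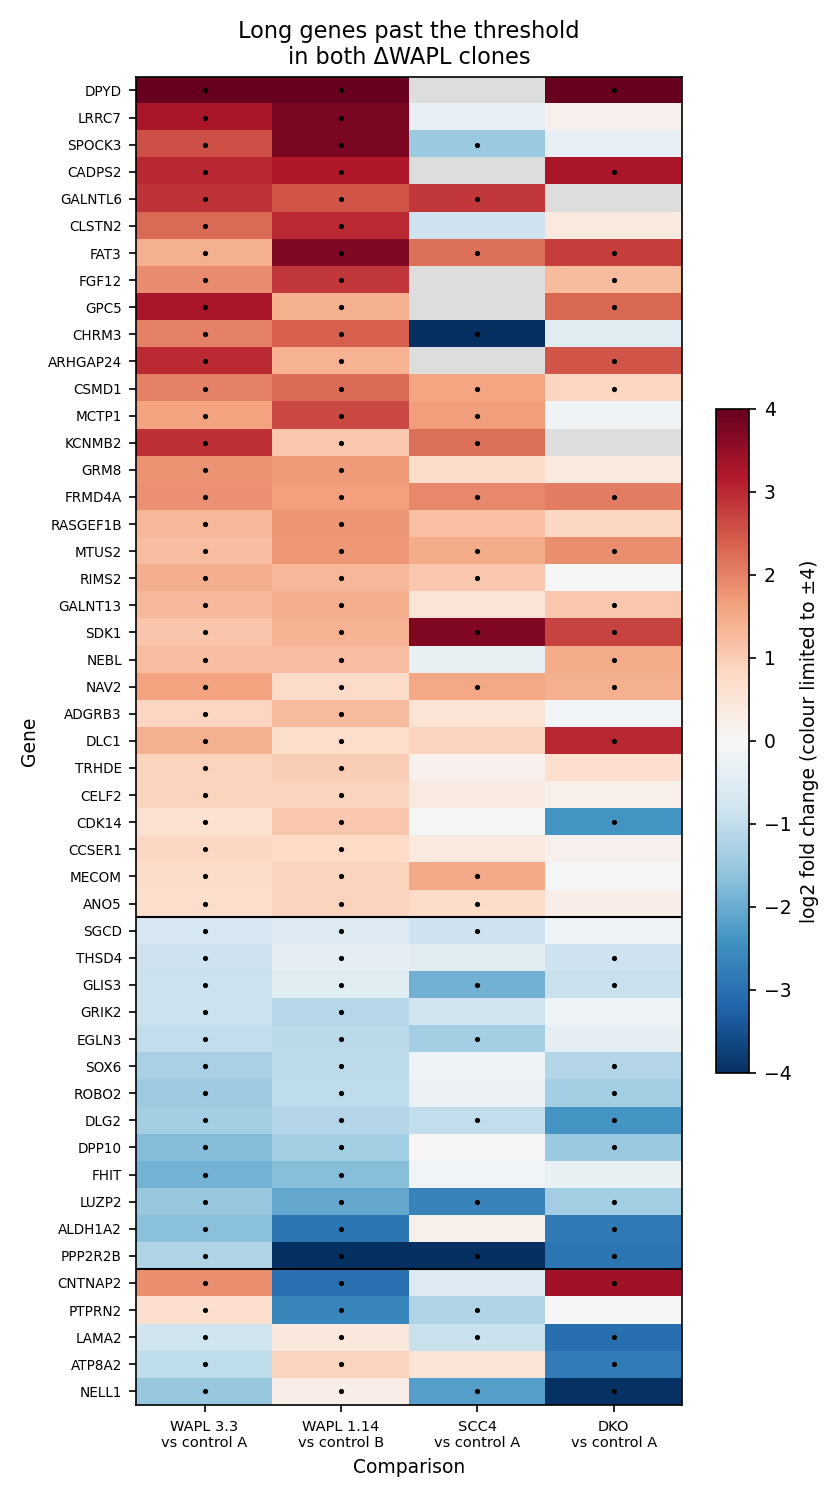
Each row is 1 of 49 of the 52 long genes past the threshold in both ΔWAPL clones (3 that were lower are not reported here) and each column a comparison with controls; colour gives the log2 fold change (limited to ±4), a dot marks a value past the threshold and grey a gene not tested. The upper block holds 31 genes higher in both clones, the middle block 13 that were lower, and the bottom block 5 that moved in opposite directions; in the SCC4 column CHRM3 is the darkest blue of the upper block.

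Several long genes that were high in ΔWAPL 3.3 were lower in the double knockout. Of the 6 largest falls from ΔWAPL 3.3 to the double knockout (MGAT4C, KCNMB2, NRG1, LRRC7, CDK14 and SPOCK3), 4 had passed as higher in ΔWAPL 3.3 against control A: KCNMB2, LRRC7, CDK14 and SPOCK3. Their levels in the double knockout are given above. ΔWAPL 3.3 enters both comparisons, so these values are given side by side only. For other genes raised in ΔWAPL 3.3 no difference passed the test: between the double knockout and ΔWAPL 3.3 the log2 difference was -0.64 ± 0.24 for DPYD (adjusted p = 0.11), 0.21 ± 0.18 for CADPS2 (0.53), 0.23 ± 0.16 for NEBL (0.43) and 0.22 ± 0.14 for FRMD4A (0.37).

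The 2 control groups differed in 2 of the 162 long genes tested, NELL1 and ALDH1A2, where 0.64% of all genes passed. Other settings gave more, up to 15 in a fit over all 18 samples, and without the second control A sample none passed by edgeR (22 of 164 at an unadjusted p under 0.05). DESeq2 on the samples of the 2 control groups called 7. GPC5, a glypican, for example held 0.325, 0.186 and 0.179 CPM in control A and 0.818, 0.739 and 0.900 CPM in control B (1.81 ± 0.37, adjusted p = 0.074). It rose from these to 2.1, 2.62 and 2.12 CPM in ΔWAPL 3.3 and to 1.81, 2.50 and 2.36 CPM in ΔWAPL 1.14. The fold changes of the 2 clones thus start from controls that need not be alike, and for 20 of 171 long genes the change itself differed between the clones, 10 in each direction, where 2.65% of all genes passed. The 20 include ERBB4, a member only through ΔWAPL 3.3.

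Common fragile sites were represented by 15 members. In ΔWAPL 3.3 6 of the 15 passed (CNTNAP2 and DPYD higher; DLG2, FHIT and RORA among those lower), in ΔWAPL 1.14 7 (AUTS2, DPYD and MAGI2 higher; CNTNAP2, DLG2 and FHIT among those lower), in ΔSCC4 4 of 14 (LRP1B and MAGI2 higher; DLG2 and RORA lower) and in the double knockout 6 of 15 (CNTNAP2 and DPYD higher; AUTS2, DLG2 and RORA among those lower). These counts lay near the shares of all long genes, 37.6%, 46.5%, 31.1% and 32%, and above those of all genes, 8.07%, 20.1%, 9.49% and 7.95%. Their median log2 fold changes were -0.30, 0.07, -0.01 and -0.31. WWOX, an oxidoreductase gene of 1113.3 kb, passed in none, with 7.42, 6.87 and 6.68 CPM in control A, 6.19, 6.79 and 5.84 in ΔWAPL 3.3, 9.26, 9.19 and 10.4 in ΔSCC4 and 8.03, 7.81 and 7.55 in the double knockout. IMMP2L, LPP, NBEA and PTPRG passed in none of the 4 either. With the replicate block WWOX and IMMP2L passed in ΔSCC4 (0.46 and 0.52, adjusted p = 0.0088 and 0.017), as did a large share of all genes in that fit. Several calls rested on single libraries: that of MAGI2 in ΔSCC4 was lost without the second control A sample (adjusted p = 0.064), that of RORA in ΔSCC4 without the first or second ΔSCC4 sample (0.059 and 0.058), and that of AUTS2 in the double knockout without its first sample (0.076).

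Genes of transcription elongation, on which every long gene depends, were tested as a list of 36. In ΔWAPL 3.3 1 of them passed, where 8.07% of all genes did, and in ΔWAPL 1.14 3, where 20.1% did. None passed by edgeR in ΔSCC4 or the double knockout against control A (9.49% and 7.95% of all genes), where 1 and 2 had an unadjusted p under 0.05 and DESeq2 called 1 in each. ELL2, a subunit of the super elongation complex, rose from 19.3, 26.4 and 26.4 to 46.9, 43.0 and 38.6 CPM in ΔWAPL 3.3 (0.82 ± 0.16, adjusted p = 0.0031) and from 30.1, 25.6 and 28.1 to 38.0, 37.3 and 36.9 CPM in ΔWAPL 1.14 (0.41 ± 0.07, adjusted p = 0.0086). In ΔWAPL 1.14 the FACT subunit SSRP1 was lower by -0.26 ± 0.07 (adjusted p = 0.048) and the splicing factor SFPQ higher by 0.21 ± 0.05 (0.03), and topoisomerase TOP2A was lower in the double knockout than in ΔWAPL 3.3 by -0.47 ± 0.11 (0.012).

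Finally, 66 long genes passed in none of the 4 comparisons with controls. With the replicate number as a block in ΔSCC4, 27 of the 66 passed there and 39 passed in none. This share was below that of all genes in the same fit, given above. That pairing was taken from these counts and is given by no label. FAF1 and ADGRV1, described next, were among the 27 (-0.21 and 0.50, adjusted p = 0.026 and 7.08e-04). The 66 were more abundant than the rest, with a median of 20 CPM against 9.25 CPM, and included 16 of the 24 members above 50 CPM, such as ADGRV1, LRBA, FAF1 and TTC28. The largest of their 4 log2 fold changes had a median size of 0.35 and reached 0.94. FAF1, for example, stood at 101, 91.2 and 85.4 CPM in control A, 95.5, 85.7 and 76.6 in ΔWAPL 3.3, 77.7, 82.3 and 80.1 in ΔSCC4 and 87.1, 88.4 and 92.3 in the double knockout. ADGRV1, an adhesion receptor of sensory hair cells, varied more within control A (102, 122 and 233 CPM) than its group means differed.

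At the edges of the definition, the 3 genes just below 500 kb were CACNA2D1 (497.5 kb), ITPR2 (497.8 kb) and DIAPH3 (498.3 kb), and the 3 just above were ANO5 (500.9 kb), SPOCK3 (501.4 kb) and PPFIA2 (501.6 kb). Group means of ITPR2, a calcium release channel, ran from 41.8 CPM in ΔSCC4 to 98.9 CPM in control A. Of the long genes just below 0.5 CPM, BANK1 had group means of 0.143 CPM in control A, 0.791 in ΔWAPL 3.3, 0.176 in control B and 0.925 in ΔWAPL 1.14, and RGS7 had 0.0803, 0.961, 0.229 and 0.856 CPM in the same order. Just above it, ELMO1 (0.521 CPM), SHANK2 (0.612 CPM) and GALNTL6 (0.673 CPM) entered the list.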

How the data were processed

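Poly(A) RNA from 18 HAP1 samples was sequenced with a strand-specific kit. The deposited values are raw read counts per gene: per the labels and the study's methods, the authors aligned reads to hg19 with TopHat (2.0.9 in the submitters' notes) and counted them with HTSeq. The gene annotation was not given in the sources used here. Rows that name no gene were left out: reads in no feature (4.04 to 5.22%), ambiguous reads (1.47 to 1.73%) and reads with no unique place (14.30 to 16.06%). Groups came from the labels. The set of each knockout sample, and so the controls it was compared with, came from its sequencing run number.

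Each comparison was fitted with edgeR (4.0.16, in R 4.3.3) on the samples it compares: TMM scaling, the default filter on low counts, the quasi-likelihood test and Benjamini-Hochberg adjustment over all genes tested. Adjusted p-values in the text come from these fits, or from the same test with a block or with a library left out where that is said. Each SE follows from the log2 fold change and the F statistic (their quotient after taking the root of F). CPM values per sample are TMM-scaled. Whether the clones differed was tested with an interaction term. Spans, exons and GC content came from GENCODE (GRCh37). The fits were tested on simulated data. DESeq2 (1.42.0) and the other alternatives are given at the end.

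The members and gene lists were chosen with earlier results of these data known. Genes were named by rule: up to 6 members that rose most and 6 that fell most in each comparison, members past the threshold in both clones or in all 3 knockout lines of set A, the extremes of span and of CPM per kb of exon, fragile site genes, the largest differences between clones and the most abundant gene of each role class. Role classes were assigned by hand. RBMS3, ATP8A2 and the genes just past the limit of level were named outside this rule, after their values were seen. Values of some named genes are not reported here. No label pairs samples across groups. The check of pairing used the same counts as the tests. In it, the deviations of same-numbered ΔSCC4 and control A samples correlated at 0.676, 0.116 and 0.615. These numbers were taken to pair the samples from this check alone. Those of ΔWAPL 3.3 and control A correlated at -0.515, -0.001 and -0.487. No other comparison had every pair above 0.1. Replicates of a group differed by more than sampling noise (chi-square per degree of freedom from 1.61 to 52). Intervals of ratios and floors cover counting error only.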

Additional observations from a re-analysis of the deposited data

Results flagged for a closer look

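For 20 long genes the change on WAPL loss differed between the clones by the interaction test. The values are the log2 fold change in clone 3.3 minus that in clone 1.14. Lower in clone 3.3 than in clone 1.14 were ZNF385D (-4.73), SYT1 (-2.64), FAT3 (-2.27), ATP8A2 (-1.89), FOXP2 (-1.78), NELL1 (-1.77), EYS (-1.71), MGAT4C (-1.52), NAV3 (-1.33) and LAMA2 (-1.20). Higher in clone 3.3 were THSD7B (1.03), RYR2 (1.11), ALDH1A2 (1.26), GPC5 (1.86), KCNMB2 (1.86), PTPRN2 (3.27), SLC4A4 (3.43), ERBB4 (3.98), PPP2R2B (4.47) and CNTNAP2 (4.84). ERBB4 was a member only through ΔWAPL 3.3, with a mean of 0.418 CPM over the other samples, so its value describes how it was chosen. Each clone was compared with the controls of its own set, so the difference between clones cannot be told apart from that between sets. Those of EYS, FAT3, GPC5, KCNMB2 and MGAT4C lost their call when single libraries were left out. That of EYS was lost without the first ΔWAPL 1.14 sample (adjusted p = 0.059). Those of FAT3 and GPC5 were lost without the second control A sample (0.079 and 0.081), among others. That of KCNMB2 was lost without any library but the second ΔWAPL 3.3 or the first control B sample (0.053 to 0.13). That of MGAT4C was lost without any library but the second control A or the third control B sample (0.063 to 0.14).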

How the results depend on the processing

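Counts of long genes past the threshold are given in the order ΔWAPL 3.3, ΔWAPL 1.14, ΔSCC4, double knockout against control A, double knockout against ΔWAPL 3.3, control B against control A, and the difference between clones. A minimum span of 300 kb (498 members) gave 124, 193, 127, 117, 140, 8 and 44, and one of 1000 kb (31 members) gave 14, 15, 12, 12, 18, 0 and 5, since these change the number of members. In the main fits the shares of all genes were 8.07, 20.1, 9.49, 7.95, 10.6, 0.64 and 2.65%. With 1000 kb the median of the long genes minus that of all genes was -0.300 in ΔWAPL 3.3 and 0.069 in ΔWAPL 1.14. Leaving out 1 library gave 47 to 71, 53 to 94, 35 to 65, 43 to 67, 51 to 62, 0 to 4 and 16 to 24. At the lowest and highest count, the share of all genes was 5.44 and 9.35% in ΔWAPL 3.3. It was 11.1 and 37.9% in ΔWAPL 1.14 and 5.25 and 18.3% in ΔSCC4. For the double knockout it was 4.62 and 12.2% against control A and 7.28 and 14.2% against ΔWAPL 3.3. Between the controls, where 2 passed, 0 passed without control A sample 2 and 4 without control A sample 3 or control B sample 2 or 3. With the replicate block the counts were 57, 87, 105, 55, 65, 9 and 14. Only in ΔSCC4 did same-numbered samples meet the check of pairing, which used these same counts. The share of all genes past the threshold rose there too, as given above, and the cause of the rise was not tested. At least 10 counts in every sample left 34 in ΔSCC4 and 12 between the clones, where fewer genes were tested. The GC offset, chosen after the data were seen, gave 6 between the controls and 31 between the clones. Between the controls no filter gave 6, a fit over all samples 15 and DESeq2 7. Shares of all genes with the GC offset, the stricter filter and these settings are not given here. No result changed direction past the threshold. Of 265 pairs of a named gene and a comparison, 192 stayed past the threshold under every setting run. Depth limits genes of a few counts per group, for which the fitted fold change depends on the prior count.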

Other observations

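Long genes that lie next to each other on a chromosome did not always move together. NAV2 and NELL1 lie 547.9 kb apart on chromosome 11 in the same orientation. In ΔWAPL 3.3 NAV2 rose and NELL1 fell, and ANO5, 207.0 kb beyond NELL1, rose by 0.70 (adjusted p = 0.022 by edgeR), a call lost without control A sample 2 (0.11) or ΔWAPL 3.3 sample 1 (0.057) or 2 (0.13). SYT1 lies 651.0 kb from NAV3 on chromosome 12, and both had a lower log2 fold change in clone 3.3 than in clone 1.14 (-2.64 and -1.33). FHIT fell in both clones, and PTPRG, 310.1 kb away on chromosome 3, passed in neither (-0.07, adjusted p = 0.93, and 0.25, adjusted p = 0.16, by edgeR). These pairs were chosen after their values were seen.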
